A study of Mus musculus with 9 samples.

Results

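High-numbered mouse miRNAs were taken from the deposited table by name: every entry that begins with mmu-miR- and carries a number from 5100 to just under 9000, on either arm and with any suffix. The rule took 237 rows, which held 237 different sequences, of 1571 sequences in the table after 37 repeats were counted once. Another 189 sequences carried a mouse name outside these numbers, 425 were predicted candidates and 720 carried other names, many of them from other species. All 6 macrophage miRNAs looked for below were matched by sequence and not by name. The 189 are thus only a part of the other mouse miRNAs in the table. miRNA numbers follow the order of discovery, so the numbers chosen here mark late additions to the mouse catalogue and say nothing by themselves about origin.

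A miRNA is a short RNA cut from a hairpin, and it guides Argonaute proteins to mRNAs that pair with its seed, the bases 2 to 8 from its 5′ end. Most hairpins are cut out of their transcript by Drosha and then by Dicer. A mirtron is a hairpin that splicing releases instead, because it fills a short intron from end to end, so that Drosha is not needed. In a tailed mirtron only 1 hairpin end is a splice site, and the tail on the other side is trimmed away. Many mouse mirtrons were catalogued late from large collections of small RNA reads, which is why high numbers and mirtrons are often spoken of together.

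The small RNAs came from RAW264.7, a mouse macrophage-like line, labelled wild type. The groups differed in the dose of ginsenoside Rd (GRd), a ginseng saponin. By its description code and the treatment protocol, the control group had 0 µM GRd after lipopolysaccharide (LPS), a bacterial activator of macrophages, but its treatment label says that it had neither, so a comparison with it covers either GRd alone or both agents. The other 2 groups had LPS for 6 h, followed by 24 h of GRd at 1 or 10 µM. Each group had 3 libraries, and no label says that they were separate cultures, so p-values measure a spread that may be technical. For library 3 at 10 µM the cell line field reads RAW264.8, while the title reads RAW264.7.

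That library also stood apart in its values. Among the 58 members found in all 9 libraries it held the highest value for 28 (48.3%), and among 623 sequences of the whole table found in all 9 it did so for 210 (33.7%). Of the 7 fibroblast and muscle miRNAs looked for, 6 were listed. They summed to 923 to 1037 normalized counts in control, 1011 to 1084 at 1 µM and 961 to 6714 at 10 µM. The top value was in this library, though miR-133a-3p was at 0 there, and miR-1a-3p was listed nowhere. The 4 red cell, liver and serum miRNAs, all listed, summed to 85.5 to 139 in control, 142 to 395 at 1 µM and 138 to 813 at 10 µM. The 6 macrophage miRNAs were all listed and summed to 605025 to 647053 in control, 595684 to 776945 at 1 µM and 327953 to 766760 at 10 µM. Their lowest sum was in library 3, where miR-21a-5p, miR-146a-5p, miR-155-5p and miR-142a-5p were at their lowest. In it miR-142a-3p was instead at its highest (1191), and miR-223-3p had 802 beside 800 in control library 3. The 5 epithelial miRNAs, all listed, summed to 2139 to 2238 in control, 1897 to 2147 at 1 µM and 2179 to 2671 at 10 µM. The part of these other RNAs in the values below was not tested. Several results that rest on library 3 are given with and without it.

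The mature sequences below belong to the most abundant members that a RefSeq entry matched by name (GRCm38.p6), and their seeds are in capitals, since the seed decides which mRNAs a miRNA can pair with.
miR-8114: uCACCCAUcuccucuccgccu
miR-8112: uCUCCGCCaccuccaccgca
miR-6546-5p: aGGCGCCUcugagcuugugcuugu
miR-5114: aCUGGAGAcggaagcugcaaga
miR-5121: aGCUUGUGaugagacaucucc
miR-7062-5p: uGGAGGCCagcuuguggagugucu
miR-6933-5p: uGGCGGCAgucaggauaccugu
miR-7043-3p: aCUGUGCCucucuguuuucag
miR-7658-5p: uGUGGGCGuggcggugcugg
None of these 9 seeds was shared by another member with a RefSeq entry. Over all 209 such members, 6 seeds were shared, each by a pair of them, the pair with the highest summed mean being miR-7023-3p and miR-7068-3p with CACCCUG (22.7 normalized counts).

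The sequence in the table was not always the RefSeq one, and a moved 5′ end changes the seed. The suffix of a name records such changes, and 129 of the 237 members carried one. A moved 3′ end was recorded for 100 members, a moved 5′ end for 48 and a base substitution for 24. Of the 24, at least 13 had T in place of the last base. Among the 189 other mouse-named sequences, 113 carried a suffix, 30 had a moved 5′ end and at least 3 had the last base replaced by T. The counts of replaced last bases can miss forms that also have a moved 5′ end. For 2 abundant members the sequences as deposited are shown, with bases 2 to 8 again in capitals.
miR-7062-5p as deposited: aTGGAGGCcagcttgtggagtgt
miR-5121 as deposited: gCTTGTGAtgagacatctcc
By its RefSeq sequence miR-7062-5p shares its seed with miR-764-3p, but the deposited form starts 1 base earlier and no longer does.

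The number of members listed per library went broadly with the smallest member value above 0 in that library, with library 3 at 10 µM as the exception. Values are normalized counts, that is reads scaled per library by the authors, and in each library at least 99.03% of the members' values above 0 were whole multiples (within 0.01) of a common step. The smallest member value was exactly 5 steps in all 9 libraries, so a member's 0 may stand for less than 5 steps and not for absence. Of the other sequences' values above 0, 2.86 to 4.38% per library lay under 5 steps, so this floor is that of the members. That floor lay at 5.31, 3.43 and 6.63 normalized counts in the control libraries, at 4.93, 4.75 and 5.57 at 1 µM and at 3.48, 5.12 and 6.89 at 10 µM. Taken as 1 read, the steps put an estimated 4933685 to 9214213 reads behind the libraries.

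Members above 0 numbered 118, 155 and 103 in the control libraries, 117, 125 and 109 at 1 µM, and 156, 125 and 138 at 10 µM. The highest counts belonged to control library 2 and to library 1 at 10 µM, which also had the lowest floors. When only values at or over the highest floor (6.89) were counted, the numbers were 90, 100 and 87 in control, 90, 94 and 74 at 1 µM, and 97, 95 and 138 at 10 µM. Library 3 at 10 µM then stood above the other 8, which spanned 74 to 100. Without it, the 10 µM counts of 95 and 97 lay within the control range of 87 to 100 and just above the 1 µM range of 74 to 94.

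**Figure D1:**
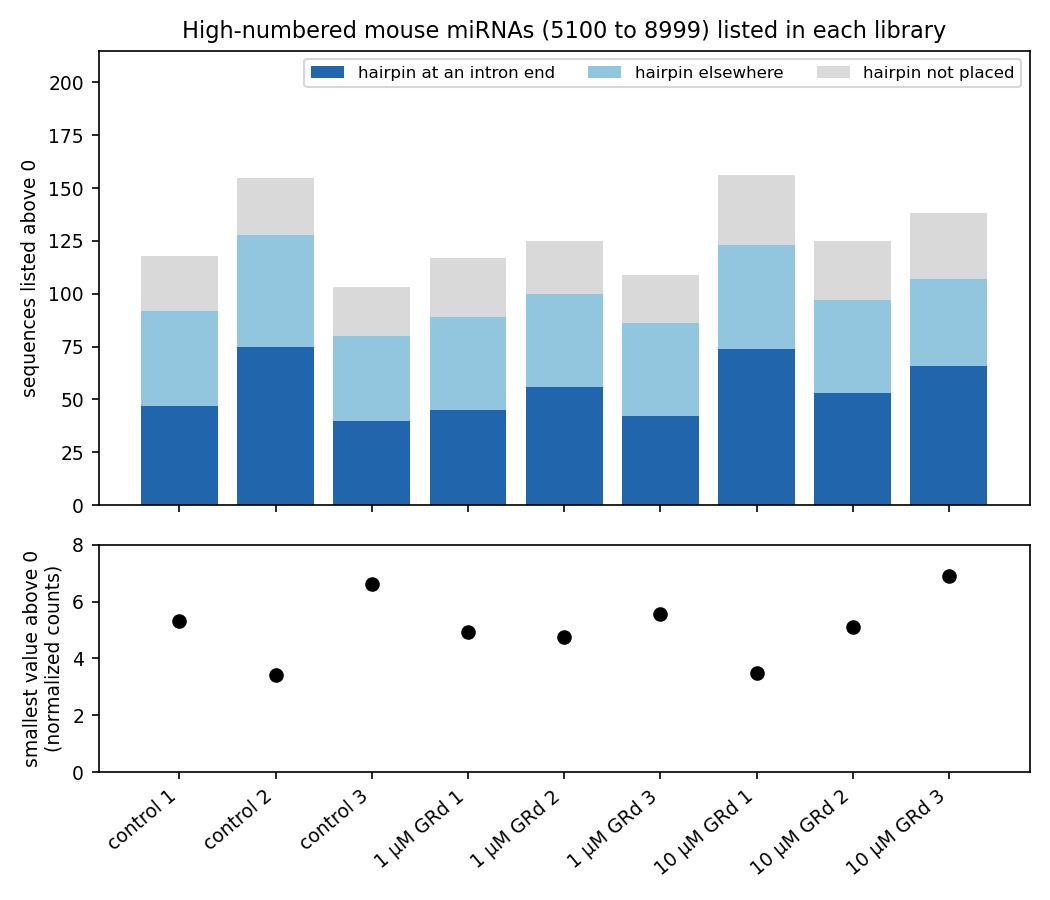
The upper panel gives the number of members above 0 in each library, split by where the hairpin lies. The lower panel gives the smallest member value above 0 in normalized counts. The 2 libraries with the lowest floor, control 2 and 10 µM GRd 1, listed 155 and 156 members, and control 3, with a floor of 6.63, listed 103.

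Few members were found throughout. Across the 9 libraries, 58 members (24.5%) were above 0 in all and 55 (23.2%) in only 1. The other mouse-named sequences were above 0 in all 9 libraries in 55.6% of cases and in 1 library in 15.9%, and 52.2% of the predicted candidates were in 1 library. The members' median level, as a mean over the 9 libraries, was 3.69 normalized counts. It was 28.5 for other mouse-named sequences and 21.4 for sequences with other names. A mean under 10 was found for 159 members (67.1%), 23 reached 50, and the highest was 1726.

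Together the members took about a thousandth of each library. As a share of the library total, their sum averaged 0.101% ± 0.00690 in the control libraries, 0.101% ± 0.00941 with 1 µM GRd and 0.117% ± 0.0350 with 10 µM GRd (mean ± SD over 3 libraries each). Library 3 alone had 0.157%, and without it the 10 µM mean was 0.0966%. The most abundant member held 21.7 to 27.9% of the members' sum in a library, and the 5 most abundant held 51.0 to 57.6%.

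By name, 95 members were 5p sequences, 106 were 3p sequences and 36 gave no arm. The sequences with no arm in the name were the most abundant, with a median mean of 11.8 normalized counts and 60.6% of the members' sum. The 5p sequences had a median of 2.61 and 22.1% of the sum, and the 3p sequences a median of 4.25 and 17.3%. A sequence without an arm comes from a hairpin for which the catalogue lists only 1 product.

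The hairpins of the 2 most abundant members cross the edge of an exon of a protein-coding gene. miR-8114 (chromosome 1, 153899989 to 153900009, GRCm38, plus strand) lies in a hairpin across an exon edge of Glul, the glutamine synthetase gene. It had 1437, 1645 and 1693 normalized counts in control, 1570, 1774 and 1584 at 1 µM, and 1373, 1465 and 2992 at 10 µM. miR-8112 (chromosome 6, 71271745 to 71271764, plus strand), across an exon edge of Krcc1, had 740, 879 and 813 in control, 966, 809 and 731 at 1 µM, and 789, 745 and 1847 at 10 µM. In both, library 3 at 10 µM was about a doubling over the median of the other 8 libraries (1.90 times for miR-8114 and 2.31 times for miR-8112), and the groups overlapped.

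Next came miR-6539, for which the reference table gave no entry, with 703, 643 and 419 normalized counts in control, 558, 588 and 491 at 1 µM, and 742, 443 and 798 at 10 µM. The groups overlapped. miR-6546 lies inside an intron of Fcgr3, a receptor for the constant part of IgG on macrophages (hairpin on chromosome 1, 171064591 to 171064652, minus strand), 101 bases from the start of that intron, and its 5p sequence had 395, 288 and 292 in control, 291, 298 and 291 at 1 µM, and 314, 237 and 248 at 10 µM. miR-5114 lies in an exon of Scd2, which encodes a fatty acid desaturase (chromosome 19, 44303171 to 44303192, plus strand), and spanned 161 to 284 over the 9 libraries.

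5 members had a sequence that is also found whole in another small RNA annotated in GENCODE vM21. Their reads cannot be told from fragments of that RNA. Nuclear tRNAs were not among the types searched, so 5 may not be a full count of such matches. miR-5121 is found in Snord33, a box C/D small nucleolar RNA in an intron of the ribosomal protein gene Rpl13a, and had 205, 170 and 134 normalized counts in control, 158, 156 and 114 at 1 µM, and 139, 201 and 442 at 10 µM. The highest of these was again library 3. miR-7033-5p (mean 75.7) and miR-7650-5p (18.4) matched other small nucleolar RNAs, miR-6516-5p (29.98) a Cajal body RNA, and miR-6481 (10.9) the mitochondrial phenylalanine tRNA mt-Tf. Small nucleolar RNAs and tRNAs were among the families that the authors' read filter was meant to remove, per the labels' protocols.

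**Figure D2:**
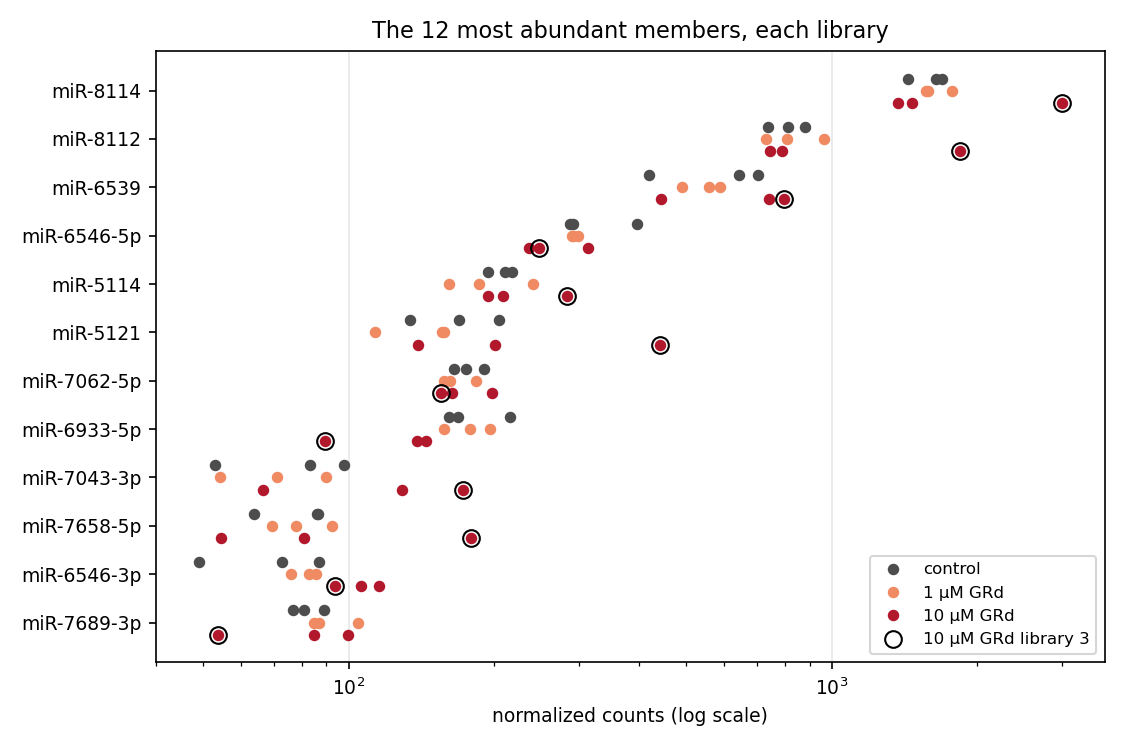
Normalized counts (log scale) of the 12 members with the highest means, 1 point per library, with library 3 at 10 µM ringed. That library is the highest of the 9 for miR-8114, miR-8112, miR-6539, miR-5114, miR-5121, miR-7043-3p and miR-7658-5p, and the lowest for miR-7062-5p, miR-6933-5p and miR-7689-3p.

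The hairpins of these miRNAs often ended at a splice site. RefSeq placed 193 members in 154 hairpins, and these were set against the introns of GENCODE vM21 on the same strand. An end within 10 bases of an intron end counted as shared. Of the 154 hairpins, 95 (61.7%) shared at least 1 end with an intron, 6 of them both ends and 89 a single end. Over all RefSeq hairpins numbered in the same range, seen here or not, it was 201 of 410 (49.0%), and over mouse hairpins with other numbers 27 of 595 (4.54%). These shares describe the annotation and were not tested. The lower-numbered mirtrons miR-877, miR-702 and miR-1224 were placed at both ends of an intron by the same rule.

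Among the 95 hairpins, the shared end was nearly always the 3′ one. In 84 hairpins the last base of the hairpin was exactly the last base of the intron, the place of the AG that closes introns, while 5 shared only the 5′ end. The introns had a median length of 374 bases and the hairpins of 66, so most had room for a tail upstream of the hairpin, as tailed mirtrons with a 5′ tail do. The other 59 hairpins fell inside introns (26), in exons (16), across exon edges (6) or where no gene was annotated on the strand (11).

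A few hairpins are shown because they carry the intron ends described, with the mature arms in capitals and the genomic place on GRCm38 given beside each.
Mir7068, which fills an intron of Cherp, chr8:72470016-72470089, minus strand: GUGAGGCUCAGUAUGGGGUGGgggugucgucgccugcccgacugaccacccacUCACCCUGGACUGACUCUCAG
Mir7091, which fills an intron of Dnase1l1, chrX:74274027-74274105, minus strand: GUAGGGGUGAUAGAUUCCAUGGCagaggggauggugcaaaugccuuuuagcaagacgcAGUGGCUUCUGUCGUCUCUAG
Mir7062, at the 3′ end of an intron of Adam8, chr7:139986809-139986874, minus strand: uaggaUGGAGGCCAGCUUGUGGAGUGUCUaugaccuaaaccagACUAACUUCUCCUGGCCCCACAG
Mir7043, at the 3′ end of an intron of Rassf4, chr6:116645978-116646047, minus strand: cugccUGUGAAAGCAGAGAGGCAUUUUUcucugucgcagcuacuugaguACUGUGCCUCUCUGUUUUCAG
Mir6933, at the 3′ end of an intron of Pgs1, chr11:118002270-118002350, plus strand: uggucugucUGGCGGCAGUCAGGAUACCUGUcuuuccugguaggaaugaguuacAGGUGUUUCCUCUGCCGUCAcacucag
Mir6546, inside an intron of Fcgr3, chr1:171064591-171064652, minus strand: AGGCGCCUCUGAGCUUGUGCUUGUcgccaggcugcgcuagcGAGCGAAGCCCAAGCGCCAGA
Mir7068 and Mir7091 begin with the GU and end with the AG of their introns, and the next 3 end with AG alone. Mir6546 has neither at its ends.

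The 120 members from hairpins at an intron end were the scarcer ones. Their median mean was 2.24 normalized counts, and they made up 20.3 to 22.8% of the members' sum in each library. The 73 members from hairpins placed elsewhere had a median of 8.14 and made up 58.7 to 66.2%. Of the 73, 29 gave no arm in the name, the most abundant kind above, against 1 of the 120, so place and arm are not separate traits here. The 44 members not placed had a median of 5.66. By library, 47, 75 and 40 of the 120 were above 0 in control, 45, 56 and 42 at 1 µM, and 74, 53 and 66 at 10 µM, with the most again in the 2 libraries with the lowest floors. The most abundant of the 120 was miR-5121. In all 9 libraries, 18 of the 120, 22 of the 73 and 18 of the 44 were found.

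The listed sequences lay at the splice site as well, which partly restates the annotation. Of the 237 members, 108 carry no suffix, and the others are named as changes to a catalogued sequence. Among the 63 3p sequences from hairpins at an intron end, 28 ended exactly on the last base of the intron. Within 2 bases of it ended 50, and 2 ran past it. The 56 5p sequences began a median of 426.5 bases inside the intron, and 4 began on its first base. AG closed 28 of the 63 3p sequences (44.4%), 1 of the 23 3p sequences from hairpins elsewhere and 4 of the 73 other mouse-named 3p sequences.

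**Figure D3:**
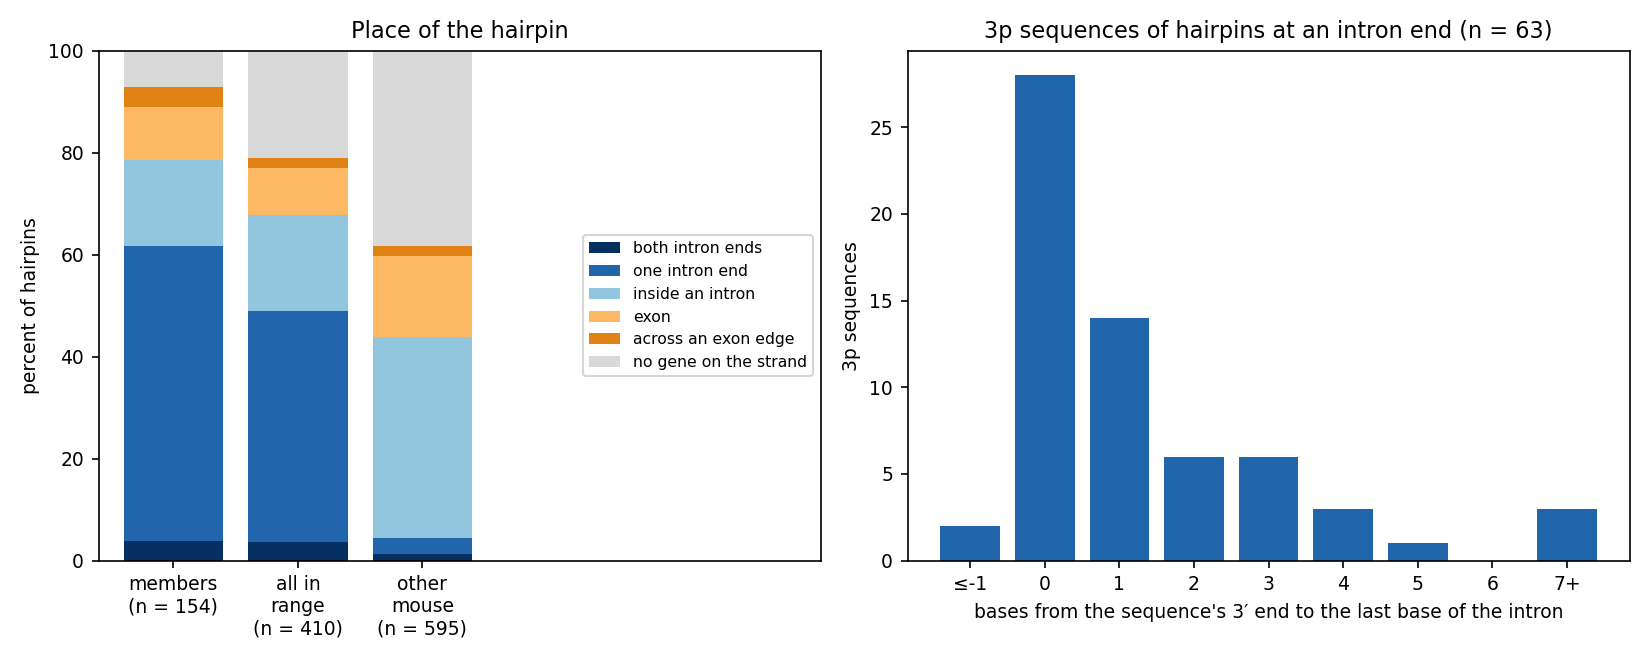
The left panel gives the percent of hairpins in each place, for hairpins of members, all hairpins numbered in the same range and other mouse hairpins, and the right panel the distance in bases from the 3′ end of each 3p sequence to the end of its intron. Of 63 sequences, 28 end at distance 0.

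Base composition, given as a description with no test, differed as well. An intron ends in a run of C and U ahead of its AG, and the paired arm then tends to hold G and A. The 3p sequences of hairpins at an intron end had a median of 71.4% C or T, against 47.6% in 3p sequences of members elsewhere and 55.0% in other mouse-named 3p sequences. The 56 5p sequences from hairpins at an intron end had a median of 43.5% G, against 30.4% elsewhere and 29.2% in other mouse-named sequences. Members not placed were close to those at an intron end, with medians of 68.1% C or T for 3p and 43.2% G for 5p. GC content as a whole was close between members at an intron end and elsewhere, at medians of 57.1% and 58.3% for 3p and 59.1% and 58.3% for 5p.

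**Figure D4:**
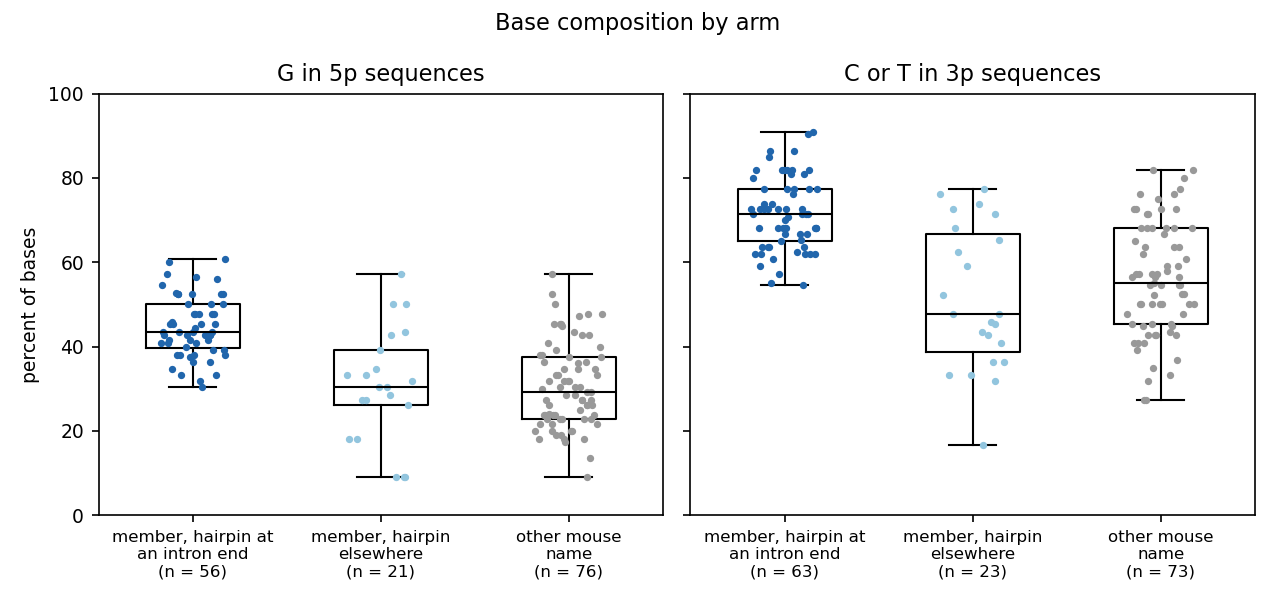
Percent of G in 5p sequences and of C or T in 3p sequences, 1 point per sequence, with boxes for the median and quartiles and whiskers for the range of points within 1.5 times the box. The 63 3p sequences at intron ends have a median of 71.4%, above those of the other groups shown, at 47.6% and 55.0%. Members not placed are not shown.

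Both arms were listed for 53 hairpins, and neither arm led as a rule: the 5p mean was higher in 30 and the 3p mean in 23. In 14 of the 53 the same arm was higher in all 9 libraries, 7 for each arm. Among hairpins at an intron end, the balance of the arms was uneven in several, and not toward the same arm. Mir7062, in an intron of Adam8 (a metalloprotease of myeloid cells), had means of 172.5 normalized counts for 5p and 24.3 for 3p. Mir6933, in Pgs1 (phosphatidylglycerophosphate synthase), had 161 for 5p and 5.54 for 3p.

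Mir7043, in Rassf4, instead had 1.10 for 5p and 90.8 for 3p, and Mir6963, in Itga5 (the alpha chain of a fibronectin receptor), had 1.71 and 69.2. miR-7043-3p stood at 97.7, 83.1 and 53.04 normalized counts in control, 89.8, 54.2 and 71.3 at 1 µM, and 129, 66.6 and 172 at 10 µM. miR-7043-5p was above 0 in 2 of the 9 libraries, so its level is near the floor. Mir5132, in Irak1 (a kinase of Toll-like receptor signalling), had 69.2 for 5p and 10.7 for 3p. Outside introns' ends, Mir6546 had 295 and 85.4, Mir7658, in an exon of Plekhn1, 87.8 and 6.92, and Mir7679, inside an intron of Slfn9, 70.5 and 43.9. All these are means over the 9 libraries.

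At the limits of the range, miR-5100 was the first member and had 11.7, 3.43 and 13.3 normalized counts in control, 0, 9.51 and 23.4 at 1 µM, and 16.03, 44.1 and 6.89 at 10 µM. miR-8120, the last, was above 0 in 6 of 9 libraries with a mean of 6.19. Just outside lay miR-5099, far more abundant at a mean of 338024, and miR-9769-3p, with a mean of 0.845. For scale, miR-877-3p, a mirtron with a lower number, had 2443, 2405 and 2305 in control, 2598, 2709 and 2384 at 1 µM, and 2416, 2408 and 7208 at 10 µM, more than any member in each library.

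The first comparison set 10 µM GRd against control, which by the conflicting labels covers either GRd alone or GRd and LPS. No member passed. limma on log2(value + 1), with Benjamini-Hochberg adjustment over 1561 sequences, called 0 of the 237 members and 0% of the whole table at an adjusted p under 0.05. The whole table gave 13 calls without library 1 at 10 µM and 1 without library 3, none of them a member. At an unadjusted p under 0.05 there were 10 members, 6 higher and 4 lower, where 5.51% of all sequences had one. That number of members was 16 without library 1 at 10 µM, 19 without library 2 at 10 µM, 4 without library 1 or library 2 at 1 µM and 6 without control library 3. The smallest adjusted p of a member was 0.541. In bulk RNA, fewer cells that make a miRNA and less of it per cell cannot be told apart. The median log2 difference of the members was 0.18, beside 0.14 for all sequences, and without library 3 at 10 µM it was 0.00.

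Among the 78 members with a mean of at least 10, the groups did not overlap for 5 members higher at 10 µM (6.68% of all such sequences) and 5 lower (4.15%). miR-6546-3p, from Fcgr3, was higher, with 106, 116 and 93.7 normalized counts at 10 µM, against 87.1, 72.8 and 49.1 in control, a log2 difference of 0.62 (SE 0.31). Its 5p partner had a log2 difference of -0.28. miR-6933-5p was lower, with 139, 144 and 89.5 at 10 µM, against 161, 169 and 216 in control, a difference of -0.57 (SE 0.27), and of -0.35 without library 3. Neither passed the test (limma adjusted p = 0.665 each).

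miR-8115, in an exon of P2rx7 (an ATP-gated channel of macrophages), had 15.3, 26.6 and 9.64 normalized counts at 10 µM, against 37.2, 35.7 and 30.5 in control, a log2 difference of -1.07 (SE 0.49). Without library 3 that difference was -0.73. miR-6481 had 9.06, 10.2 and 67.5 at 10 µM, against 0, 6.18 and 0 in control, a fitted difference of 3.36, or 2.46 without library 3, and its match to mt-Tf is given above. miR-6962-3p, at the 3′ end of an intron of Acvr1b (an activin receptor), had 19.5, 13.3 and 37.2 at 10 µM, against 9.56, 5.49 and 7.96 in control. Its log2 difference was 1.40, or 1.01 without library 3. None of these 3 passed (limma adjusted p = 0.665 each).

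The others without overlap were miR-7661-3p and miR-7687-3p, higher at 10 µM, and miR-7651-5p, miR-7679-3p and miR-7676-3p, lower, with log2 differences from -1.83 to 1.84. miR-7651-5p was at 0 in library 3, and its difference of -1.83 was -0.59 without that library. The smallest p belonged to miR-6916-5p, from an intron of Esyt1, listed at 0 in all 3 libraries at 10 µM and at 5.31, 4.12 and 7.96 in control. Those control values lay near the floors, so no fold is given. Next by p were miR-6481, miR-7659-5p, miR-7023-3p and miR-6915-3p (limma adjusted p = 0.665 each). The last 3 of these had values of at most 12.4 normalized counts in the 6 libraries compared.

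The second comparison set 1 µM GRd against control, and 0 members and 0% of all sequences passed. At an unadjusted p under 0.05 there were 5 members, 2 higher and 3 lower, beside 1.79% of all sequences, and there were 8 without library 1 at 1 µM and 9 without control library 3. With array weights the whole table gave 4 calls, none of them a member. The smallest adjusted p was 1, and the median log2 difference was 0 for the members and 0 for all sequences. With a mean of at least 10, 2 members were higher without overlap (9.05% of all such sequences) and 2 lower (3.86%).

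miR-5106 was higher without overlap, with 36.5, 33.3 and 33.4 normalized counts at 1 µM, against 12.7, 29.5 and 9.28 in control, a log2 difference of 1.12 (SE 0.90). miR-6399, inside an intron of Eif4g3, was the other, with a difference of 0.81. miR-7687-5p (-0.67) and miR-7651-5p (-0.71) were lower. The 5 smallest p values belonged to miR-6916-5p, miR-6958-3p, miR-5125, miR-7657-5p and miR-6955-5p, all with an adjusted p of 1 (limma). The first 4 were listed at 0 in every library of 1 of the groups.

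In the third comparison, 10 against 1 µM, the dose was the only labelled difference apart from the RAW264.8 label, and 0 members and 0% of all sequences passed. At an unadjusted p under 0.05 there were 13 members, 9 higher and 4 lower, beside 4.80% of all sequences, and there were 8 without library 2 at 1 µM or without control library 2. Without library 1 at 10 µM the whole table gave 9 calls, none of them a member. The smallest adjusted p of a member was 0.683. The median log2 difference of the members was 0.31, and 0.15 for all sequences. Without library 3 at 10 µM the median of the members was 0.09. With a mean of at least 10, 4 members were higher without overlap (5.19% of all such sequences) and 7 lower (5.79%).

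miR-6933-5p was lower here too, with 139, 144 and 89.5 normalized counts at 10 µM, against 158, 179 and 196 at 1 µM, a log2 difference of -0.54 (SE 0.27), or -0.32 without library 3. miR-8115 had 15.3, 26.6 and 9.64 at 10 µM, against 33.6, 31.4 and 41.2 at 1 µM, a difference of -1.10 (SE 0.49). Without library 3 that difference was -0.77. miR-5106 had 15.3, 0 and 13.8 at 10 µM, against 36.5, 33.3 and 33.4 at 1 µM, a difference of -2.51 (SE 0.90) that rests in part on the 0. The limma adjusted p was 0.683 for each of the 3. These 2 comparisons of 10 µM share their treated libraries, so the same direction in both is no second observation.

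Of the higher ones, miR-6962-3p had 19.5, 13.3 and 37.2 normalized counts at 10 µM, against 9.87, 4.75 and 0 at 1 µM. The log2 difference of miR-6962-3p was 2.50, or 2.11 without library 3. miR-6481 and miR-7661-3p were higher as well. miR-6546-3p had 106, 116 and 93.7 at 10 µM, against 82.9, 76.0 and 85.7 at 1 µM, a log2 difference of 0.36 (SE 0.31). miR-7035-3p, miR-6239, miR-7679-3p and miR-7676-3p were lower without overlap, with log2 differences from -0.84 to -0.32. miR-7115-3p, from the 3′ end of an intron of Arrb2 (a beta-arrestin), had the smallest p, with 4.18, 5.12 and 16.5 at 10 µM and 0 in each library at 1 µM, and miR-7074-3p was also at 0 in all 3 at 1 µM (limma adjusted p = 0.683 each).

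How large a change could be seen depended on abundance. For the 23 members with a mean of at least 50, the 95% interval of a log2 difference reached a median of 0.69 to either side, and for the 78 with a mean of at least 10 it reached 1.22. These intervals are not adjusted for the number of sequences tested. A typical member of either set could thus change by less than this without being told from 0, and the adjusted test asks for a larger change. The SD of log2 values of the 23 members had a median of 0.26 in control and 0.20 at 1 µM. At 10 µM it was 0.46, the widest of the 3, with library 3 included.

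**Figure D5:**
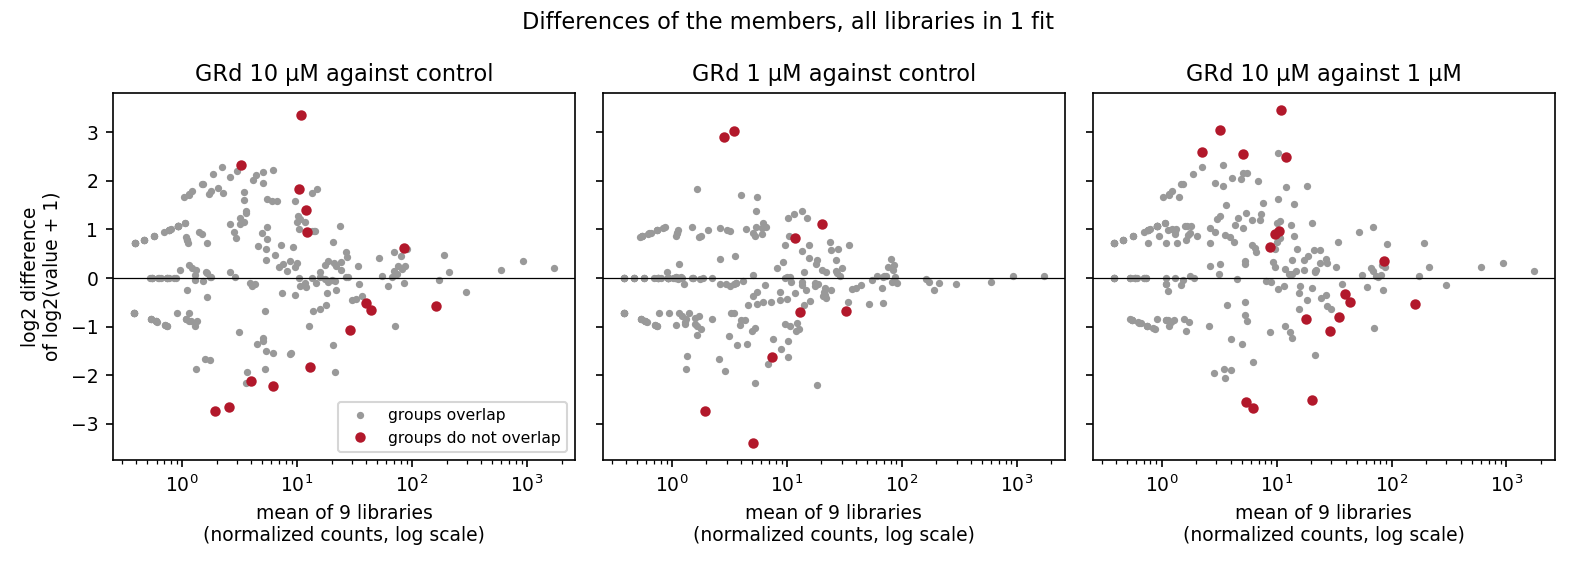
Log2 differences of the members against their mean over 9 libraries (normalized counts, log scale), 1 panel per comparison, with members whose groups do not overlap in red. Differences beyond 2 on the log2 scale lie at means of about 20 normalized counts or less, and 0 members passed limma in any of the 3 panels.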

How the data were processed

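Small RNA libraries (TruSeq) were made from about 5 µg of total RNA, sequenced on a HiSeq instrument, and filtered with ACGT101-miR against adapter dimers, junk, low complexity, rRNA, tRNA, snRNA, snoRNA and repeats, per the labels' protocols. The deposited signal values, headed normalized counts per the file headers, are reads of each miRNA sequence, which the authors scaled library by library. How they scaled them, their miRBase release and their genome build: not given in the sources used here. Library sums were 6235670 to 6815351. The filter can lower sequences that resemble the removed families, and a change shared by most miRNAs would be hidden by the scaling.

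Members and lists were chosen with earlier results of these data known. The members' values were whole multiples of a step, but only 83.1 to 87.1% of the other sequences' were, so tests for read counts were not run. limma 3.58.1 (R 4.3.3, mean-variance trend) was fitted to log2(value + 1) of all 9 libraries with 1 mean per group, after a filter that kept sequences averaging 1 or more in any group. All members passed it, since 1 value over the floor suffices. Benjamini-Hochberg adjustment ran over all sequences at 0.05. The added 1 makes log2 differences of scarce sequences smaller, while a 0 that stands for a value under the floor can make them larger. Such differences therefore depend on the setting. For miR-6481 at 10 µM against control, the alternatives gave 1.40 to 5.55. The fit was tried on simulated data without a floor, with changes placed only on sequences with a mean of at least 50. Of the members, 23 reach that mean, so the simulation does not cover the scarcer ones. Named members are the 12 with the highest means, the 5 smallest p per comparison, those with a mean of at least 10 and no overlap, hairpins with both arms (up to 8 by mean, Mir7068 and Mir7091 added for their geometry after their values were seen, as were members that share a sequence or a seed with another RNA), and the range limits.

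Of the members' names, 209 matched a RefSeq mature miRNA and 28 did not. Hairpin coordinates are those of RefSeq (GRCm38.p6), compared with GENCODE vM21 introns (GRCm38). Coordinates of a member are those of its RefSeq mature sequence. Python 3.11.15, pandas 2.3.3, numpy 2.4.6 and matplotlib 3.10.9 were used.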

Additional observations from a re-analysis of the deposited data

How the results depend on the processing

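The count of members called stayed 0 in all 3 comparisons under each of the 21 alternatives: other pseudocounts, filters and scalings, array weights, repeats kept, only the 6 libraries compared, each library left out, a replicate block, and, chosen after seeing the data, low values raised to the highest floor or only sequences found in all 9 libraries. With the replicate block it was 0 in each comparison. Same-numbered libraries did not deviate together (r from -0.32 to 0.16). With 3 libraries per group, that cannot exclude that the numbers pair them. Over all sequences, which also gave 0 calls, the count was 13 (10 µM against control) and 9 (10 against 1 µM) without library 1 at 10 µM, 1 (10 µM against control) without library 3 at 10 µM, and 4 (1 µM against control) with array weights. Members at an unadjusted p under 0.05 ranged over the alternatives from 3 to 19 (10 µM against control), 0 to 12 (1 µM against control) and 2 to 17 (10 against 1 µM). The smallest adjusted p of a member ranged from 0.159 to 0.855 (10 µM against control), 0.0503 to 1 (1 µM) and 0.210 to 0.844 (10 against 1 µM). Members per library had a median of 125, and 74 at a value of at least 10, 56 with only rows without a suffix and 94 at the highest floor. The mean share was 0.0765% in control and 0.0752% at 1 µM without the most abundant member, and 0.0937% in control with repeats kept. With a library left out it ranged from 0.0978 to 0.105% in control, 0.0971 to 0.106% at 1 µM and 0.0966 to 0.128% at 10 µM. Hairpins at an intron end numbered 88 within 3 bases and 98 within 30.

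The named members in all 3 comparisons gave 105 log2 differences, of which 34 changed sign under some alternative (73 changes of sign in all). Some of these are rounding of a difference of 0: 5 changes of miR-6916-5p and 1 of miR-7659-5p, both at 10 against 1 µM. The alternatives are detailed here for 46 of the 105 differences: the 12 most abundant members at 10 µM against control, and the others where the naming rule picked them. That restriction was made after the sign changes had been counted. Of the 46, 7 changed sign somewhere, all of abundant members at 10 µM against control. With a library left out they ranged from -0.16 to 0.40 for miR-8114, -0.077 to 0.58 for miR-8112, -0.071 to 0.42 for miR-6539, -0.041 to 0.23 for miR-5114, -0.15 to 0.025 for miR-7062-5p, -0.23 to 0.62 for miR-7658-5p and -0.28 to 0.16 for miR-7689-3p. All 7 had turned without library 3 at 10 µM, and miR-6539 and miR-7062-5p also without control library 3. With array weights they were -0.030 for miR-8114, -0.047 for miR-6539, 0.021 for miR-7062-5p, -0.13 for miR-7658-5p and 0.061 for miR-7689-3p. The cause was not tested. Depth limits the members near the floor.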
